A study of Mus musculus with 21 samples.

Results

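The tropomyosins and sarcomeric actins were read on single-color Agilent expression arrays of single mouse myofibers. The members, chosen by gene name, are Tpm1, Tpm2, Tpm3, Tpm4, Acta1 and Actc1. They are 6 of the 35527 gene names on the array, read by the 13 of 55681 non-control probes that carry 1 of them, with 5 probes for Tpm1, 3 for Tpm3, 2 for Tpm2 and 1 each for Tpm4, Acta1 and Actc1. The samples were 11 type 1 myofibers of the soleus muscle and 10 type 2B myofibers of the extensor digitorum longus (EDL), each taken as pure for its myosin heavy chain on a protein gel of a clipped piece of the same myofiber. They came from 9 untreated CD1 mice at 3 months of age, which the labels give as male and the methods as female. Each type was sampled from 6 mice, of which 3 were shared. Because every type 1 myofiber was from soleus and every type 2B myofiber from EDL, fiber type and muscle cannot be told apart. Myofibers are named by muscle, myofiber number and mouse number, as in S6.4.

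Tropomyosins are coiled-coil dimers that lie end to end along the actin filament, where they hold troponin and gate the access of myosin to actin. Each tropomyosin gene gives several isoforms through alternative promoters, internal exons and last exons. In striated muscle the main products are a fast isoform of Tpm1, the beta isoform of Tpm2 and a slow isoform of Tpm3, whereas Tpm4 is known mostly for cytoskeletal isoforms. The actin of adult skeletal thin filaments comes from Acta1, and Actc1, the cardiac actin, is used in heart and in developing skeletal muscle.

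The probes lie at different places in each gene and can read different isoforms, and no exon annotation of mm9 was used here. The Tpm1 probes lie on the minus strand of chromosome 9 of mm9. A_55_P2187038 (chr9:66875796-66875855) and A_55_P2187043 (chr9:66875782-66875841) overlap by 46 bases, and A_55_P2187053 (chr9:66872131-66872190) lies elsewhere in the gene. The windows of 30 bases shown for the latter pair of probes each hold a polyadenylation hexamer, in capitals, and are shown because the types differed at the first and not detectably at the second.
A_55_P2187043: tcgcccagtgtaaAATAAAcactgtacgct
A_55_P2187053: ttgtatagcttcATTAAAtcctcaataacc

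A_55_P2032192 (chr9:66871166-66871225) ends in TGA, a stop codon, in capitals.
A_55_P2032192: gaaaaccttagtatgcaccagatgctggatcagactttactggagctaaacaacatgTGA

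A_55_P2078680 of Tpm1 (chr9:66880274-66880333) and A_55_P2090205 of Tpm3 (plus strand, chr3:89892985-89893044) are shown because the signals at both differed by type, in opposite directions. Of the 60 bases, 29 were identical at the same position and are in capitals, and A_55_P2121408 of Tpm2 had 30 identical with the same Tpm3 probe. The 2 probes read different sequences, so that their opposite directions are no comparison of like isoforms.
A_55_P2078680: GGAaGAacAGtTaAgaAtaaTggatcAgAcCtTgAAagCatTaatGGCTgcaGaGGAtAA
A_55_P2090205: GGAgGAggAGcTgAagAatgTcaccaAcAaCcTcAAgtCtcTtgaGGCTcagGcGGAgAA

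The most alike probes of different members, A_55_P2078680 of Tpm1 and A_52_P315976 of Tpm2 (chr4:43531276-43531335, minus strand), had 25 identical bases in the best alignment, over 38 bases and without gaps. The other Tpm3 probes were A_55_P2246235 (chr3:89877669-89877728) and A_55_P2090209 (chr3:89904428-89904487).

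The intensities were quantile normalized between the 21 arrays and are given as log2 signal, the log2 of scanner units after normalization. A signal compares myofibers at the same probe, and signals of different probes are not compared as levels. Differences are type 2B minus type 1 from limma, with the mouse as a random block, and p was adjusted by Bonferroni over all 46918 probes tested, with Benjamini-Hochberg beside it. All 13 member probes were among those tested. No spot was saturated on any array, and 9 of the 13 probes were well above background in all 21 myofibers. On an array 38.7% to 79.8% of spots were well above background, and precision is limited by how many arrays and mice there were. The myofiber S6.4 stood apart from its label. Its Myh7 (slow myosin heavy chain) signal was 9.22 against a type 1 median of 15.82, and its Myh2 (type 2A myosin heavy chain) signal was 15.22 against a type 1 median of 7.78. At 10 of the 13 member probes its signal lay inside the type 2B range. Some of these probes do not set S6.4 apart, since other type 1 myofibers lay inside that range too. At Acta1 all type 1 signals (15.92 to 16.82) lay within the type 2B range (15.82 to 16.98). It is kept among type 1 as labelled, and results are given with and without it.

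Signals of Tpm3 were 23.8- to 56.5-fold higher in type 1 myofibers at its 3 probes, and those of Tpm1 were higher in type 2B at 4 of its 5 probes, all past Benjamini-Hochberg. At the bright pair of Tpm1 probes the fold was 8.09 and 8.94, and at the others its size is uncertain, since 6 of 11 type 1 myofibers were well above background there and normexp background correction lowered the log2 differences from 5.13 to 3.39 and from 3.81 to 1.92. Tpm4, a dim probe that passed the filter through type 1 alone, was higher in type 1. No difference was detected for Tpm2, Acta1 or Actc1. At a Bonferroni adjusted p of 0.05, 4 of the 13 probes passed, 1 toward type 2B and 3 toward type 1, and over all probes tested 1.43% passed, 0.612% toward type 2B and 0.821% toward type 1. With Benjamini-Hochberg adjustment 8 of 13 passed, 4 in each direction, against 7.57% of all probes tested, 3.48% toward type 2B and 4.09% toward type 1. Without S6.4 the Bonferroni count rose to 7 of 13, 4 toward type 2B and 3 toward type 1, against 1.41% of all probes, and the Benjamini-Hochberg count stayed at 8, against 7.31%. The Bonferroni count fell to 0 without mouse 3, the source of the most myofibers, against 0.583% of all probes. There 8 of 13 passed Benjamini-Hochberg, against 4.68% of all probes. A fixed block for mouse also gave a Bonferroni count of 0, against 0.386%, and 7 of 13 past Benjamini-Hochberg, against 2.96%. With S6.4 the myofibers of the types were apart at 0 of 13 member probes, against 1.34% of all probes, and without it at 5 of 13, against 1.64%. Means per mouse did not overlap at 7 of 13 probes, against 4.96% of all probes, and at 7 again without S6.4, against 5.01%. Tpm4 is among these 7 and among the 8 past Benjamini-Hochberg, with the limit that its filter was passed through type 1 alone. The median difference was 0.08 over the 13 probes and 0.03 over all probes tested, and the median size without regard to sign was 3.02 and 0.34.

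**Figure D1:**
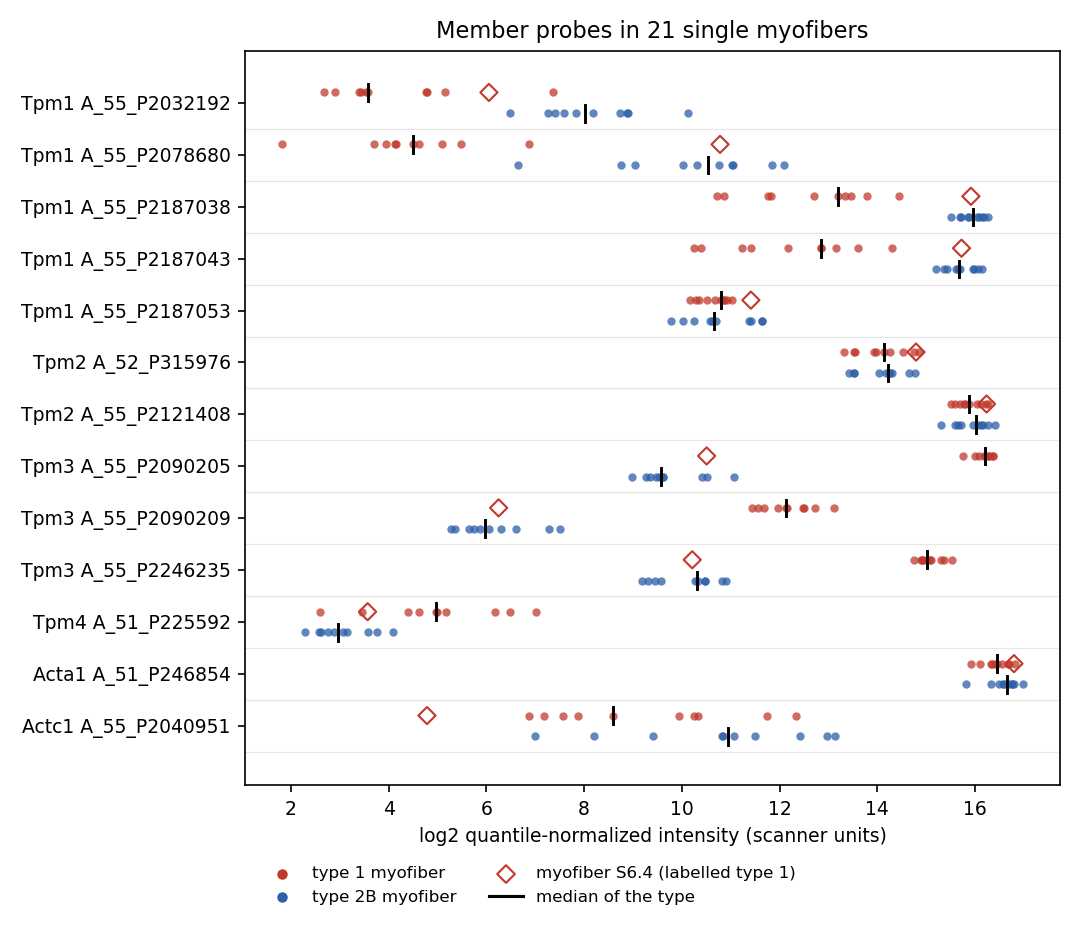
Log2 signal of the 13 member probes in each of 11 type 1 and 10 type 2B myofibers, with the median of each type as a black bar and the myofiber S6.4 as an open diamond. The Tpm3 probes are high in every type 1 myofiber except S6.4, while at A_55_P2187038 of Tpm1 the type 2B myofibers sit between 15.51 and 16.26; the Tpm3 probe A_55_P2090205 has no value in S15.2.

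Tpm3 held the largest difference of the 13 probes. Its probe A_55_P2090205 had a log2 signal between 10.51 and 16.38 in type 1, with a median of 16.21, and between 8.99 and 11.07 in type 2B, with a median of 9.57. The type 1 value of 10.51 was that of S6.4, and the other type 1 myofibers lay between 15.75 and 16.38, above every type 2B myofiber. The scanner software flagged this spot as an outlier in S15.2, so that the fit used 10 type 1 values. By mouse the signal was 15.68 ± 1.14 in type 1 and 10.03 ± 0.74 in type 2B (n = 6 mice each, SD). The difference was -5.82 ± 0.57 (SE, Bonferroni adjusted p = 4.7e-05), which is 56.5-fold (95% interval 24.9 to 128.3). Without S6.4 it was -6.42 ± 0.25 (SE, Bonferroni adjusted p = 2.0e-12), or 85.6-fold.

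The other 2 probes of Tpm3 went the same way. At A_55_P2246235 the range was 10.21 to 15.52 in type 1, with a median of 15.02, and 9.18 to 10.91 in type 2B, with a median of 10.30. The difference was -4.57 ± 0.48 (SE, Bonferroni adjusted p = 1.2e-04), and -5.05 without S6.4. At A_55_P2090209 the signal ran from 6.25 to 13.11 in type 1, with a median of 12.14, and from 5.28 to 7.52 in type 2B, with a median of 5.96, where 7 of 10 myofibers were well above background. This difference was -5.48 ± 0.59 (SE, Bonferroni adjusted p = 1.8e-04), and -6.02 without S6.4. At each of the 3 probes S6.4 held the lowest type 1 value and lay inside the type 2B range. Means per mouse did not overlap between the types at any of the 3 probes (two-sided exact permutation test over 924 groupings, p = 0.0022, the smallest it allows). The groupings treat the means of a mouse that gave both types as separate.

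The 3 Tpm3 probes did not differ by the same amount. The log ratio of A_55_P2246235 over A_55_P2090205 was -1.03 ± 0.22 in type 1 and 0.33 ± 0.50 in type 2B (n = 6 mice each, SD, two-sided exact permutation test, p = 0.0022), a difference of 1.37, and 1.46 without S6.4. For A_55_P2090209 over A_55_P2090205 no difference in log ratio was detected (0.28, two-sided exact permutation test of mouse means, p = 0.33). These ratios between probes of 1 gene were chosen after their values were seen.

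The difference of Tpm1 depended on the probe. At A_55_P2187038 the log2 signal ran from 10.72 to 15.92 in type 1, with a median of 13.19, and from 15.51 to 16.26 in type 2B, with a median of 15.95. The highest type 1 value was that of S6.4, and the other type 1 myofibers reached 14.44, below every type 2B myofiber. By mouse it was 13.02 ± 0.62 in type 1 and 15.86 ± 0.23 in type 2B (n = 6 mice each, SD), without overlap (two-sided exact permutation test, p = 0.0022). The difference of 3.02 ± 0.47 (SE), or 8.09-fold, did not pass Bonferroni (adjusted p = 0.082) and passed Benjamini-Hochberg (adjusted p = 1.1e-04). Without S6.4 it was 3.33 ± 0.39 (SE), or 10.07-fold, and passed (Bonferroni adjusted p = 0.0012).

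The overlapping probe A_55_P2187043 gave 10.24 to 15.73 in type 1, and up to 16.15 in type 2B, with medians of 12.84 and 15.67. Without S6.4 type 1 reached 14.29, below every type 2B myofiber. Its difference was 3.16 (Bonferroni adjusted p = 0.12), and 3.50 without S6.4 (Bonferroni adjusted p = 0.0020). Since this pair shares 46 bases, it is not independent evidence. A further probe that the array does not name Tpm1, A_55_P2078675 (minus strand, chromosome 9, named by an Ensembl transcript that the array describes as tropomyosin 1), is outside the member rule and was looked at for that reason. It had medians of 6.04 in type 1 and 9.62 in type 2B, with a difference of 3.36 ± 0.39 (SE, Bonferroni adjusted p = 5.7e-04), and 3.66 without S6.4.

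At A_55_P2187053 the types did not separate. The signal ran from 10.16 to 11.41 in type 1 and 9.79 to 11.65 in type 2B, with medians of 10.801 and 10.66, and the myofibers overlapped over almost the whole range. The difference was 0.08 (95% interval -0.44 to 0.60), and 0.15 without S6.4. Within an array, the log ratio of A_55_P2187038 over A_55_P2187053 was 2.37 ± 0.67 in type 1 and 4.78 ± 0.66 in type 2B (n = 6 mice each, SD, two-sided exact permutation test, p = 0.0022). The difference between the types was thus larger by 2.41 at A_55_P2187038, and by 2.68 without S6.4. This ratio too was chosen after its values were seen.

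The remaining Tpm1 probes were dim in type 1. The probe A_55_P2078680 ran from 1.82 to 10.78 in type 1, with a median of 4.503, and from 6.65 to 12.09 in type 2B, with a median of 10.54. Only 6 of 11 type 1 myofibers were well above background there, against all 10 of type 2B. S6.4 held the highest type 1 value, 10.78, above the type 2B median, and without it type 1 reached 6.87. The difference was 5.13 ± 0.81 (SE, Bonferroni adjusted p = 0.097, Benjamini-Hochberg adjusted p = 1.3e-04), and 5.70 without S6.4 (Bonferroni adjusted p = 2.5e-04). With normexp background correction, which raises dim values, the difference was 3.39.

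The signal at A_55_P2032192 was also higher in type 2B. Its signal lay between 2.67 and 7.37 in type 1, with a median of 3.57, and between 6.49 and 10.13 in type 2B, with a median of 8.01. The type 1 maximum was S10.10, and S6.4 at 6.05 lay below every type 2B myofiber. The difference was 3.81 ± 0.53 (SE, Bonferroni adjusted p = 0.012), and 3.98 without S6.4. It was 1.92 with normexp (Bonferroni adjusted p = 0.069), and 6 of 11 type 1 myofibers were well above background. Means per mouse overlapped (two-sided exact permutation test, p = 0.0043).

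**Figure D2:**
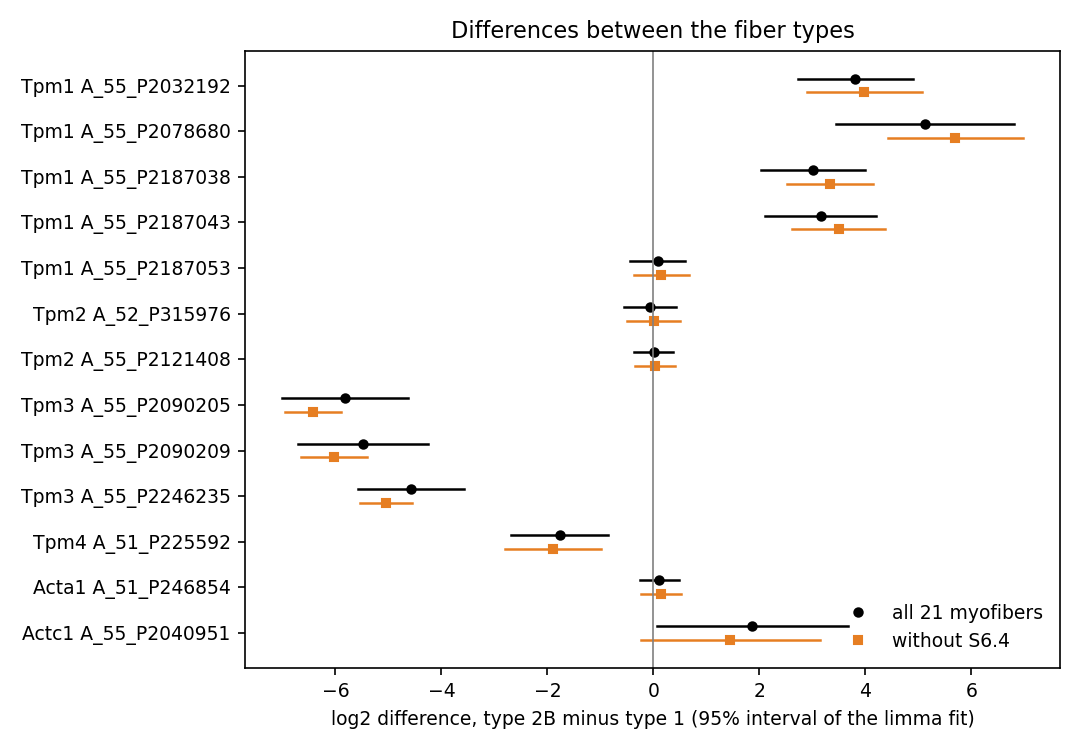
Log2 difference, type 2B minus type 1, of each member probe with its 95% interval from limma, over all 21 myofibers (black) and without S6.4 (orange). The Tpm3 probes lie between -5.82 and -4.57 with all myofibers and the Tpm1 probe A_55_P2187053 at 0.08, while the other Tpm1 probes lie between 3.02 and 5.13.

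Tpm1 at A_55_P2187038 also varied among type 1 myofibers themselves. Without S6.4 its log2 signal had an SD of 1.26 over the 10 other type 1 myofibers and of 0.24 over the 10 type 2B myofibers. Tpm3 at A_55_P2090205 showed the opposite, with 0.20 in type 1 and 0.66 in type 2B. At both probes the smaller SD fell in the type with the brighter signal. Acta1 (0.28 and 0.32) and Tpm2 at A_55_P2121408 (0.27 and 0.35), bright in both types, had small SDs in both. Whether brightness sets this spread was not tested. Among these 10 type 1 myofibers, Tpm1 was lowest in S7.3 at 10.72 and in S7.2 at 10.86, and highest in S14.2 at 14.44. S7.3 and S16.3 (13.47) came from mouse 3, and S7.2 and S14.2 from mouse 2. Over the 2 mice with several type 1 myofibers the SD within a mouse was 1.66. The myofibers of each of these mice lay on different slides, with S7.3 and S7.2 on slide 1 and S16.3 and S14.2 on slide 4, so that spread between myofibers and between slides cannot be told apart here.

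Read as a ratio within each array, Tpm3 over Tpm1 separated the types at their brightest probes. The log ratio of A_55_P2090205 over A_55_P2187038 ran from 1.74 to 5.57 in type 1 without S6.4 and from -7.05 to -4.44 in type 2B, and S6.4 had -5.41. By mouse it was 2.73 ± 1.62 in type 1 and -5.83 ± 0.93 in type 2B (n = 6 mice each, SD, two-sided exact permutation test, p = 0.0022). The difference was -8.55, and -9.38 without S6.4. Over all pairs of a Tpm3 and a Tpm1 probe it lay between -11.02 and -4.71. The mouse means at the 2 brightest probes were already apart in opposite directions. Their ratio restates this and is no further test.

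**Figure D3:**
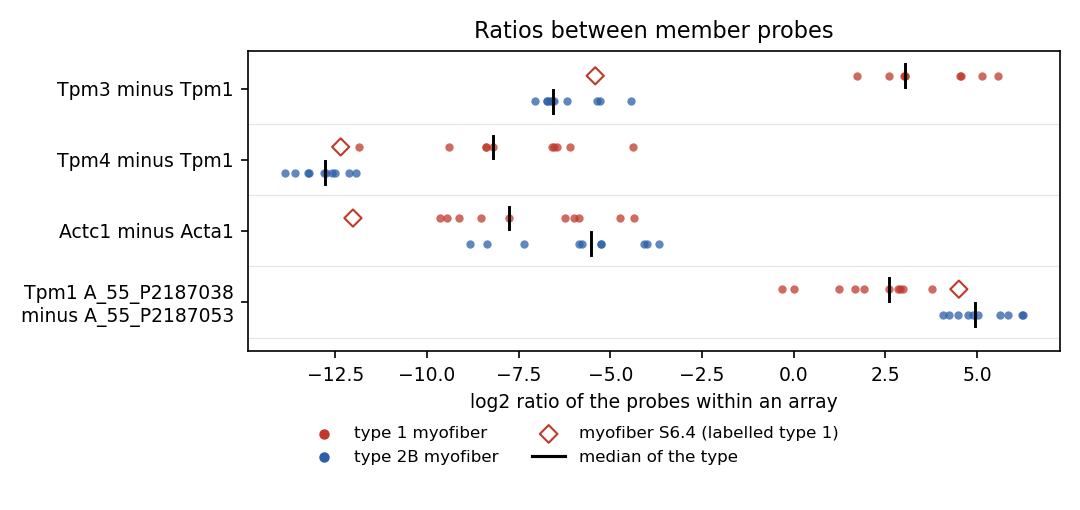
Log2 ratio within an array for the brightest probes of Tpm3 over Tpm1, Tpm4 over Tpm1 and Actc1 over Acta1, and for the Tpm1 probes A_55_P2187038 over A_55_P2187053, with each point a myofiber, the median as a black bar and S6.4 as an open diamond. Because the probes differ, the absolute value of a ratio has no meaning, and only the shift between the types does, which is -8.55 by mouse means for Tpm3 over Tpm1.

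Tpm4 was dim. Its probe A_51_P225592 (chr8:74676891-74676950) was well above background in 7 of 11 type 1 and 1 of 10 type 2B myofibers. The log2 signal lay between 2.58 and 7.01 in type 1, with a median of 4.97, and between 2.29 and 4.09 in type 2B, with a median of 2.97. Type 1 values thus spread widely, from S14.2 at the bottom, inside the type 2B range, to S16.3 at the top. The difference was -1.77 ± 0.44 (SE, Bonferroni adjusted p = 1, Benjamini-Hochberg adjusted p = 0.011), and -1.89 without S6.4. Means per mouse, 5.0 ± 0.64 and 2.98 ± 0.46 (n = 6 mice each, SD), did not overlap (two-sided exact permutation test, p = 0.0022). Because most type 2B spots were near background the size is uncertain, and with normexp it was -0.55. As a log ratio over Tpm1 at A_55_P2187038, Tpm4 differed by -4.85 between the types (two-sided exact permutation test of mouse means, p = 0.0022), by -3.40 with normexp, and by -7.63 to -2.44 over the other Tpm1 probes. The size of this ratio carries the same limit. Mouse means of Tpm4 and of this Tpm1 probe were already apart in opposite directions, so that their ratio is no further test.

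Tpm2 did not differ detectably. At A_55_P2121408 (chr4:43532262-43532321) the signal ran from 15.51 to 16.27 in type 1 and 15.31 to 16.41 in type 2B, with a difference of 0.01 (95% interval -0.36 to 0.37). At A_52_P315976 it ran from 13.32 to 14.85 and from 13.42 to 14.78, with a difference of -0.06 (95% interval -0.55 to 0.44). The sign of both changed with the processing, and scaling to the 75th percentile gave 0.29 and 0.16.

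Both sarcomeric actins were detected in every myofiber, and their spreads were very unlike. The Acta1 probe A_51_P246854 (chr8:126416197-126416256) was between the 9th and the 194th brightest of 55681 probes on every array. Its signal lay between 15.92 and 16.82 in type 1 and between 15.82 and 16.98 in type 2B, with medians of 16.46 and 16.65. The difference was 0.11 (95% interval -0.25 to 0.48), and 0.40 under the 75th percentile (Benjamini-Hochberg adjusted p = 0.31).

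Actc1 varied widely within both types. At A_55_P2040951 (chr2:113873064-113873123) the type 1 values ran from 4.78 in S6.4 to 12.34 in S15.2, with a median of 8.58, and those of type 2B from 6.99 in E11.9 to 13.14 in E7.7, with a median of 10.95. The types overlapped over most of this range, and S6.4 was the lowest of all 21 myofibers. The difference of 1.87 ± 0.87 (SE) had an unadjusted p of 0.043 and did not pass (Benjamini-Hochberg adjusted p = 0.25, limma), and it was 1.46 without S6.4. By mouse the signal was 8.77 ± 1.12 in type 1 and 10.48 ± 2.08 in type 2B (n = 6 mice each, SD). The mouse means overlapped, and no difference between them was detected (two-sided exact permutation test, p = 0.11). The log ratio of Actc1 over Acta1 differed by 1.60 (two-sided exact permutation test of mouse means, p = 0.10).

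Within both types Actc1 varied with Tpm1 at the overlapping pair of Tpm1 probes. The correlation of A_55_P2040951 with A_55_P2187038 was 0.74 over the 10 type 1 myofibers without S6.4 and 0.72 over the 10 type 2B myofibers, and at A_55_P2187043 it was 0.75 and 0.67. At the other Tpm1 probes it lay between -0.13 and 0.26 in type 1 without S6.4 and between -0.15 and 0.14 in type 2B. In type 2B Actc1 was also correlated with Tpm2 at A_55_P2121408, at 0.71, and with Acta1, at 0.68, while in type 1 without S6.4 these were -0.05 and -0.12. In S6.4 the 2 genes parted, with Tpm1 at 15.92 and Actc1 at 4.78. These correlations are descriptions over myofibers that share mice and slides.

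**Figure D4:**
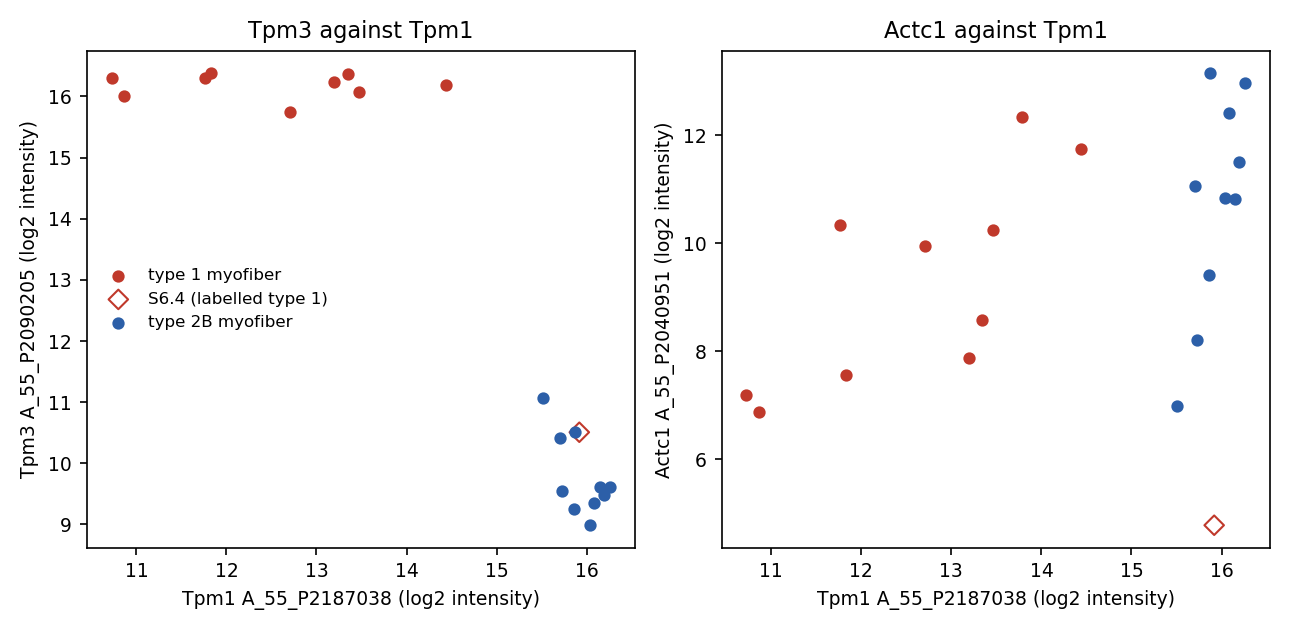
Log2 signal of Tpm3 (left) and of Actc1 (right) against Tpm1 at A_55_P2187038, each point a myofiber and S6.4 an open diamond. On the left type 1 myofibers other than S6.4 lie at Tpm3 values between 15.75 and 16.38 and type 2B myofibers between 8.99 and 11.07, with S6.4 among the latter; on the right Actc1 rises with this Tpm1 probe within each type, with correlations of 0.74 and 0.72, except for S6.4 at the bottom.

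The arrays came from 6 slides, and slide 1 held 8 arrays, 4 of each type, with S6.4 among them. On slide 1 the difference of Tpm3 at A_55_P2090205 was -4.94, and -6.36 without S6.4 (a fit without the mouse block, chosen after its values were seen), and on the other slides it was -6.43. For Tpm1 at A_55_P2187038 these were 3.30, 4.46 and 2.88, and for Actc1 2.68, 1.88 and 1.42. With slide as a fixed block they were -5.75, 3.37 and 2.44. In that fit 2 of 13 probes passed Bonferroni, both of Tpm3, against 0.997% of all probes tested.

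The genes whose signal was most like that of Tpm3 over the 20 myofibers with a value were Myh6, Tnnc1, Myh7, Tnni1 and Myh7b, with correlations between 0.984 and 0.989. They are slow or cardiac myosin heavy chains and the slow troponins C and I. Within type 1 without S6.4 these correlations were 0.06 for Myh6 and between 0.76 and 0.98 for the other 4, and within type 2B from -0.24 for Myh7b to 0.51 for Myh6. For Tpm1 at A_55_P2187038, over 21 myofibers, they were Tnni2, Mylpf, Myom2, Gm14492 and Tnnt3, with correlations between 0.945 and 0.983. Within type 1 without S6.4 these ranged from 0.71 for Tnnt3, the fast troponin T, to 0.93 for Tnni2, the fast troponin I, and within type 2B from -0.54 for Gm14492 to 0.70 for Mylpf, the fast regulatory light chain. For Actc1 the correlations were lower, between 0.733 and 0.796, and led by the predicted gene Gm1587.

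Of 13 regulators of the thin filament, 3 were higher in type 2B and 4 in type 1 after Bonferroni, as in the fit without S6.4. The median difference of this list was -0.40, and the largest were those of Tnnt1 (slow troponin T, -8.34), Lmod2 (leiomodin, -8.28) and Tnni1 (slow troponin I, -7.72), all toward type 1. Lmod2 was well above background in 2 of 10 type 2B myofibers, so that its size and its rank rest on signal near background. Of 13 genes for actin capping and turnover, 1 passed, Wdr1, which aids cofilin, with -2.28 (Bonferroni adjusted p = 0.034), and without S6.4 it did not (Bonferroni adjusted p = 0.098). The median of this list was 0.03. Of 18 genes that anchor actin at the Z-disc, 3 were higher in type 2B and 5 in type 1, with a median of -0.64. Actn3 (fast alpha-actinin) differed by 9.53 and Csrp3 by -9.77, the latter with 5 of 10 type 2B myofibers well above background, and Myoz2, well above background in 0 of 10 type 2B myofibers, was at least 384.8-fold higher in type 1. For this bound the type 1 mean was set against a floor, the dimmest signal well above background on a type 2B array or the probe's own where higher.

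None of the 4 other actins passed after Bonferroni or Benjamini-Hochberg in limma, and 0 of them had an unadjusted p under 0.05. Of 7 genes around serum response factor (SRF), which drives actin genes, 2 passed, Fhl1 (-7.51) and Fhl2 (-4.48), both higher in type 1 and well above background in 8 and 7 of 10 type 2B myofibers, and Srf itself differed by -0.19 (Benjamini-Hochberg adjusted p = 0.72). The CArG box, the motif that SRF binds, was looked for on both strands in the RefSeq promoters of build GRCm38.p6, 250 bases before to 50 bases after the start. It was present in 2 of 7 member promoters, those of both sarcomeric actins, and in 1.63% of all 32851 promoters. The windows show the box in capitals, 73 bases before the start of Acta1 (minus strand, chr8:123894829-123894858) and 47 bases before that of Actc1 (minus strand, chr2:114052903-114052932).
Acta1: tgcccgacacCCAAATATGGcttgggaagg
Actc1: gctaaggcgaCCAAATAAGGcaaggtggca

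Of 6 tested genes for splicing factors known to act on tropomyosin exons, 0 passed Bonferroni or Benjamini-Hochberg in limma, and 2 had an unadjusted p under 0.05. The list held 8 genes, and Rbfox1 and Rbfox2 were not found on the array under those names. Of the fiber type myosins, Myh4 (type 2B) differed by 11.63 and Myh7 by -8.07, and neither Myh1 nor Myh2 passed Bonferroni.

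RNA of other cells could lie in a myofiber sample, and fewer attached cells and less RNA per cell cannot be told apart. Of the smooth muscle markers, 7 of 8 were tested and 0 passed by Bonferroni or Benjamini-Hochberg in limma, with 1 at an unadjusted p under 0.05. The summed signal of that list ran from 2342 to 7659 normalized scanner units in type 1 and 2373 to 21150 in type 2B, and Lmod1 was not well above background in any myofiber. Of the endothelial markers, 6 of 7 were tested, 0 passed by either adjustment and 1 had an unadjusted p under 0.05 (limma), with sums of 1964 to 4489 in type 1 and 1826 to 4849 in type 2B. Blood cell markers had 4 of 5 tested, with 0 past either adjustment and 0 at an unadjusted p under 0.05 (limma), and sums of 358.7 to 8629 and 382.3 to 764.6.

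For connective tissue, 4 of 6 markers were tested and 0 passed Bonferroni, while Col3a1, a fibrillar collagen, was higher in type 1 by Benjamini-Hochberg (-2.45, adjusted p = 0.0014, limma), the only 1 of the list with an unadjusted p under 0.05. Their sums were 284.8 to 4763 in type 1 and 215.2 to 692.2 in type 2B, and Lum and Pdgfra were not well above background in any myofiber. For satellite cells, 4 of 5 were tested, 0 passed Bonferroni and 3 had an unadjusted p under 0.05 (limma). Ncam1, a cell adhesion molecule, was higher in type 1 by Benjamini-Hochberg (-2.50, adjusted p = 0.0050, limma). The other tested markers did not pass Benjamini-Hochberg, with Pax7 toward type 1 (-1.37), Cdh15 toward type 2B (1.12) and Myod1 at 0.02. The sums of the satellite cell markers were 1538 to 8464 and 815.2 to 4850, and Myf5 was not well above background in any myofiber. Of 5 markers of developing fibers, 1 passed Bonferroni, Myh3 (embryonic myosin heavy chain), and 4 had an unadjusted p under 0.05 (limma). Myh3 was well above background in 0 of 10 type 2B myofibers and was at least 25.6-fold higher in type 1. Chrna1 (-2.18) and Myog (-1.39) went toward type 1 and Myh8 toward type 2B (0.51), while Chrng differed by -0.0034. The sums of this list were 4548 to 71450 and 32710 to 76570. They came mostly from Myh8, with median log2 signals of 15.25 and 15.97 at the brightest of its 4 probes, the only 1 used. Whether this probe reads Myh8 alone was not tested, so the sums are no measure of developmental myosin. The part of these cells in the differences of Tpm4 and Actc1 was not tested.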

How the data were processed

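RNA of 21 single myofibers was amplified by the authors by whole-transcriptome amplification, labelled with Cy3 and hybridized to single-color Agilent 8x60K arrays, with 1 array per myofiber. The deposited intensities are background-subtracted processed signals from Feature Extraction 10.7.3.1, and per the file headers the probes were placed on mm9. Control spots (3671 of 62976) and outlier spots were left out, intensities were quantile normalized, put on the log2 scale and averaged per probe (R 4.3.3, limma 3.58.1, data.table version 1.17.8). Amplification and background subtraction make dim probes less certain. A probe was tested where its signal was positive and significant in 50% or more of the arrays of either type. limma was fitted with the mouse as a random block (consensus correlation -0.017). The call was a Bonferroni adjusted p of 0.05. Means per mouse were compared by the exact two-sided permutation test over 924 groupings. Members and gene lists were chosen with earlier results of these data known. All member probes are named, and of each list up to 3 genes past Bonferroni with the largest differences, marker genes that moved with type, and the 5 genes most alike Tpm3, Tpm1 and Actc1. For a list, the brightest tested probe of each gene was used. Likeness is Pearson's r over all myofibers with the brightest probe of a member. Alternatives were other scalings, filters, blocks, slides, the methods' Welch test and leaving out each myofiber or mouse. The authors' value matrix, of 21 columns, was not used.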

Additional observations from a re-analysis of the deposited data

How the results depend on the processing

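Of the 13 member probes, 4 passed Bonferroni, against 1.43% of all probes tested. The count was 8 with Benjamini-Hochberg, against 7.57% of all probes, and 2 with slide as a fixed block, against 0.997%. It was 0 with the mouse as a fixed block, against 0.386%, and 0 on slide 1 alone, against 0.145%. On slide 1 without S6.4 and without the mouse block (chosen after seeing the data) it was 2, against 0.144%. By the methods' Welch test on linear signal it was 1, against 0.212%. Beside these 0 counts, 8 probes with the mouse block and 9 on slide 1 had an unadjusted p under 0.05. Past Benjamini-Hochberg (limma) were 7 and 1, against 2.96% and 2.41% of all probes. Leaving out 1 myofiber gave 4 to 7, with 7 without S6.4, against 1.24% to 1.41% of all probes. Leaving out 1 mouse gave 0 to 6, against 0.583% to 1.33%. The 0 was without mouse 3, where the share was 0.583% and 8 member probes had an unadjusted p under 0.05. Slide 1 alone and the fits without a mouse use fewer samples, and otherwise the cause was not tested. The other alternatives gave counts from 3 to 6, against 0.647% to 1.93% of all probes. Removing saturated spots changed nothing, since there were none.

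The Tpm3 and Tpm4 differences stayed negative and those of Actc1, Acta1 and the Tpm1 probes other than A_55_P2187053 positive under every alternative run. Differences near 0 changed sign. A_55_P2187053 of Tpm1 gave -0.050 with undetected spots missing, -0.23 with the mouse as a fixed block and -0.065 on slides 2 to 6, and from -0.016 to 0.20 over the left-out myofibers and to 0.48 over the left-out mice. A_52_P315976 of Tpm2 gave 0.16 under the 75th percentile, 0.13 with means per mouse and 0.020 with slide as a block, with -0.14 to 0.018 over left-out myofibers and -0.14 to 0.082 over left-out mice. A_55_P2121408 of Tpm2 gave -0.013 with undetected spots missing, -0.10 with the mouse block, -0.072 with slide as a block and -0.0084 by Welch's test, with -0.047 to 0.076 over left-out myofibers and -0.049 to 0.059 over left-out mice.

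The ratio of A_55_P2032192 over A_55_P2187038 turned from 0.41 to -1.14 with normexp (exact permutation test, two-sided p = 0.028), and that of A_55_P2078680 over A_55_P2187038 went from 2.77 to 1.05 (p = 0.12, same permutation test). The Actc1 over Acta1 ratio ranged from 1.12 to 2.48 over left-out mice, and passed without mouse 9 (exact permutation p = 0.016). With Benjamini-Hochberg the list counts became 4 for actin capping, 5 for the SRF list, 4 for the myosins, 1 for connective tissue and 1 for satellite cells. With every tested probe they became 1 for satellite cells and 2 for developing fibers, and without S6.4 0 for actin capping, where 3 passed Benjamini-Hochberg (limma).

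Replicate numbers did not pair the samples, with correlations of deviations between -0.16 and 0.2 over 10 pairs and 1 of 10 type 2B myofibers correlating best with its own number. With the replicate block 3 of 13 member probes passed Bonferroni, against 0.705% of all probes. Signal near background limits Tpm4 and the dim Tpm1 probes, and the number of mice limits all values.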
